A study of Mus musculus with 6 samples.

Results

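To see how genes that present antigen to T cells behaved in microglia after acute ischemic stroke (AIS), with and without a label of extra PGC-1α, 10 genes of MHC class II presentation and costimulation were examined. They were H2-Aa, H2-Ab1, H2-Eb1, H2-DMa, H2-DMb1, Cd74, Ciita, Cd40, Cd80 and Cd86. The genes were listed by name as a pathway, with earlier results of these data known. Every probe whose transcript accession belonged to one of them was taken, whatever its values. This gave 19 probes for 10 genes, out of 56605 probes on the array and 23462 genes that its probes could be matched to. RNA of microglia from mice with AIS, in the study a transient blockage of the middle cerebral artery, was measured on single-colour microarrays, 3 arrays per group and 6 in all. The control mice were PGC-1α f/f mice, which carry a PGC-1α sequence with an eGFP tag that is silent until the recombinase Cre acts. The mPGC-1α mice carried the same allele together with a tamoxifen-inducible Cre driven by Cx3cr1 (Cx3cr1-CreERT2). The control samples were labelled as lacking PGC-1α overexpression. All samples were labelled as microglia of male mice aged 10 weeks, and the study selected the cells with magnetic beads against the receptor P2RY12. Cx3cr1 is also active in monocytes and in macrophages at the borders of the brain, and the study left an interval between tamoxifen and AIS that was meant to keep the overexpression to microglia. The labels do not say whether the arrays of a group came from separate mice, so p-values measure the spread between these samples, which may be technical.

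MHC class II molecules carry peptides of ingested proteins to the cell surface, where CD4+ T cells read them. In the H2-A molecule the α chain is H2-Aa and the β chain is H2-Ab1, H2-Eb1 is the β chain of H2-E, and the invariant chain Cd74 guards the empty groove until the H2-DM molecule, made of H2-DMa and H2-DMb1, loads a peptide. Ciita is the coactivator that switches these genes on in response to interferon gamma, while Cd80 and Cd86 bind Cd28 on the T cell and Cd40 receives the signal of the CD40 ligand. Microglia at rest hold little class II, and its rise is a known mark of their activation.

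The class II genes share an upstream element through which Ciita acts, in which an X box is followed by a Y box, the latter read by NF-Y. The stretches of 3 member promoters that hold both are shown because this element is the one through which Ciita is known to act, as background, and no value here tests a link between these genes and Ciita. They come from the RefSeq promoter table (build GRCm38.p6), which held windows for 5 of the 10 genes, namely H2-Aa, H2-Eb1, H2-DMa, H2-DMb1 and Cd80. Capitals mark the letters searched for, GNAACT as the core of the X box and TGATTGG as the core of the Y box, on both strands in the 250 bases before each start, with 20 to 45 bases between the first letters of the pair. Each is written 5′ to 3′ on the strand of the gene.
H2-Aa: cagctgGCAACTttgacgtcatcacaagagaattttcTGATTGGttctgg
H2-Eb1: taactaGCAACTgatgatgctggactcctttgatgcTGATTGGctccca
H2-DMb1: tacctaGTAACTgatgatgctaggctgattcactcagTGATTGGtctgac

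The stretch of H2-Aa lies at chr17:34287861-34287910 on the minus strand, with its Y core 50 bases before the start of the gene. That of H2-Eb1 lies at chr17:34305770-34305818 on the plus strand, 61 bases before the start, and that of H2-DMb1 at chr17:34153091-34153140 on the plus strand, 63 bases before it. The X and Y cores begin 31, 30 and 31 bases apart in this order of genes. Of 32851 promoters in the table, 0.204% held both cores in this order and spacing, 37.3% held the X core and 7.23% the Y core. The windows of H2-DMa and Cd80 did not hold both cores, which says only that these letters are not there.

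A level is given throughout in log2 units relative to the array's own 75th percentile of processed signal, so that 0 is the 75th percentile, and a difference is the mPGC-1α mean minus the control mean on this scale. Levels of different probes are not compared, since each binds its target with its own strength. The signal was well above background, by the scanner software's own test, on between 71.0% and 86.5% of the spots of an array, and no spot was saturated. Of the 19 member probes, 18 were well above background on all 6 arrays. The software had marked 13 of the 114 member spots as outliers, 5 of them on mPGC-1α array 3, and these were left out. This left 16 probes that could be tested, at least 1 for every gene, of which 11 had values on all 6 arrays. The arrays lay on 2 slides, with arrays 1 and 2 of each group on the first and array 3 of each group on the second.

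The labels were checked before the genes were compared. Ppargc1a, the gene of PGC-1α, had levels of -1.44, -0.94 and -0.93 on the control arrays and -1.49, -1.27 and -1.54 on the mPGC-1α arrays by its brighter probe, so the overexpression was not seen (difference -0.33, limma adjusted p = 0.817). Whether this probe reads the transcript of the transgene is not stated in the sources used here, and mPGC-1α below names the label of an array. Xist, the RNA of the inactive X chromosome in females, was between -0.97 and -0.51 on 5 arrays and at -5.21 on control array 2, the single array with the Y-linked Ddx3y well above background. The 5 arrays go against the label of male samples, and control array 2 stands apart from the rest. For several genes, but not for every result, the difference without it is therefore also given. Cx3cr1, the gene whose promoter drives Cre, was at 3.81, 3.28 and 3.71 in control and at 2.38, 1.95 and 2.72 in mPGC-1α (difference -1.25, adjusted p = 0.669). The study names the Cre line as an altered Cx3cr1 allele, and its controls were littermates given only as PGC-1α f/f. The groups may therefore differ in Cx3cr1 itself as well as in PGC-1α. The part of this in the members' differences was not tested.

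No gene of class II presentation or costimulation passed the test. Over all probes tested, 0% passed at an adjusted p of 0.05, and 7.15% had an unadjusted p under it, against 2 of the 16 member probes, 1 each of H2-Eb1 and Ciita. The smallest adjusted p of a member was 0.669. With 1 probe per gene, that with the highest mean, 8 of the 10 genes had a lower mean in mPGC-1α and the median of their differences was -0.16, or -0.31 with 9 lower when the arrays were scaled by quantile normalization. With marked spots kept it was -0.12 with 7 lower, and without control array 3 it was -0.04 with 6 lower. The lower genes include Cd80 and Cd86, whose probes disagree in direction as given below. Among all 18222 genes tested, 38.3% had a lower mean and the median difference was 0.09 (0.07 with quantile normalization). In bulk samples such as these, fewer cells of a type and less RNA per cell cannot be told apart.

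**Figure D1:**
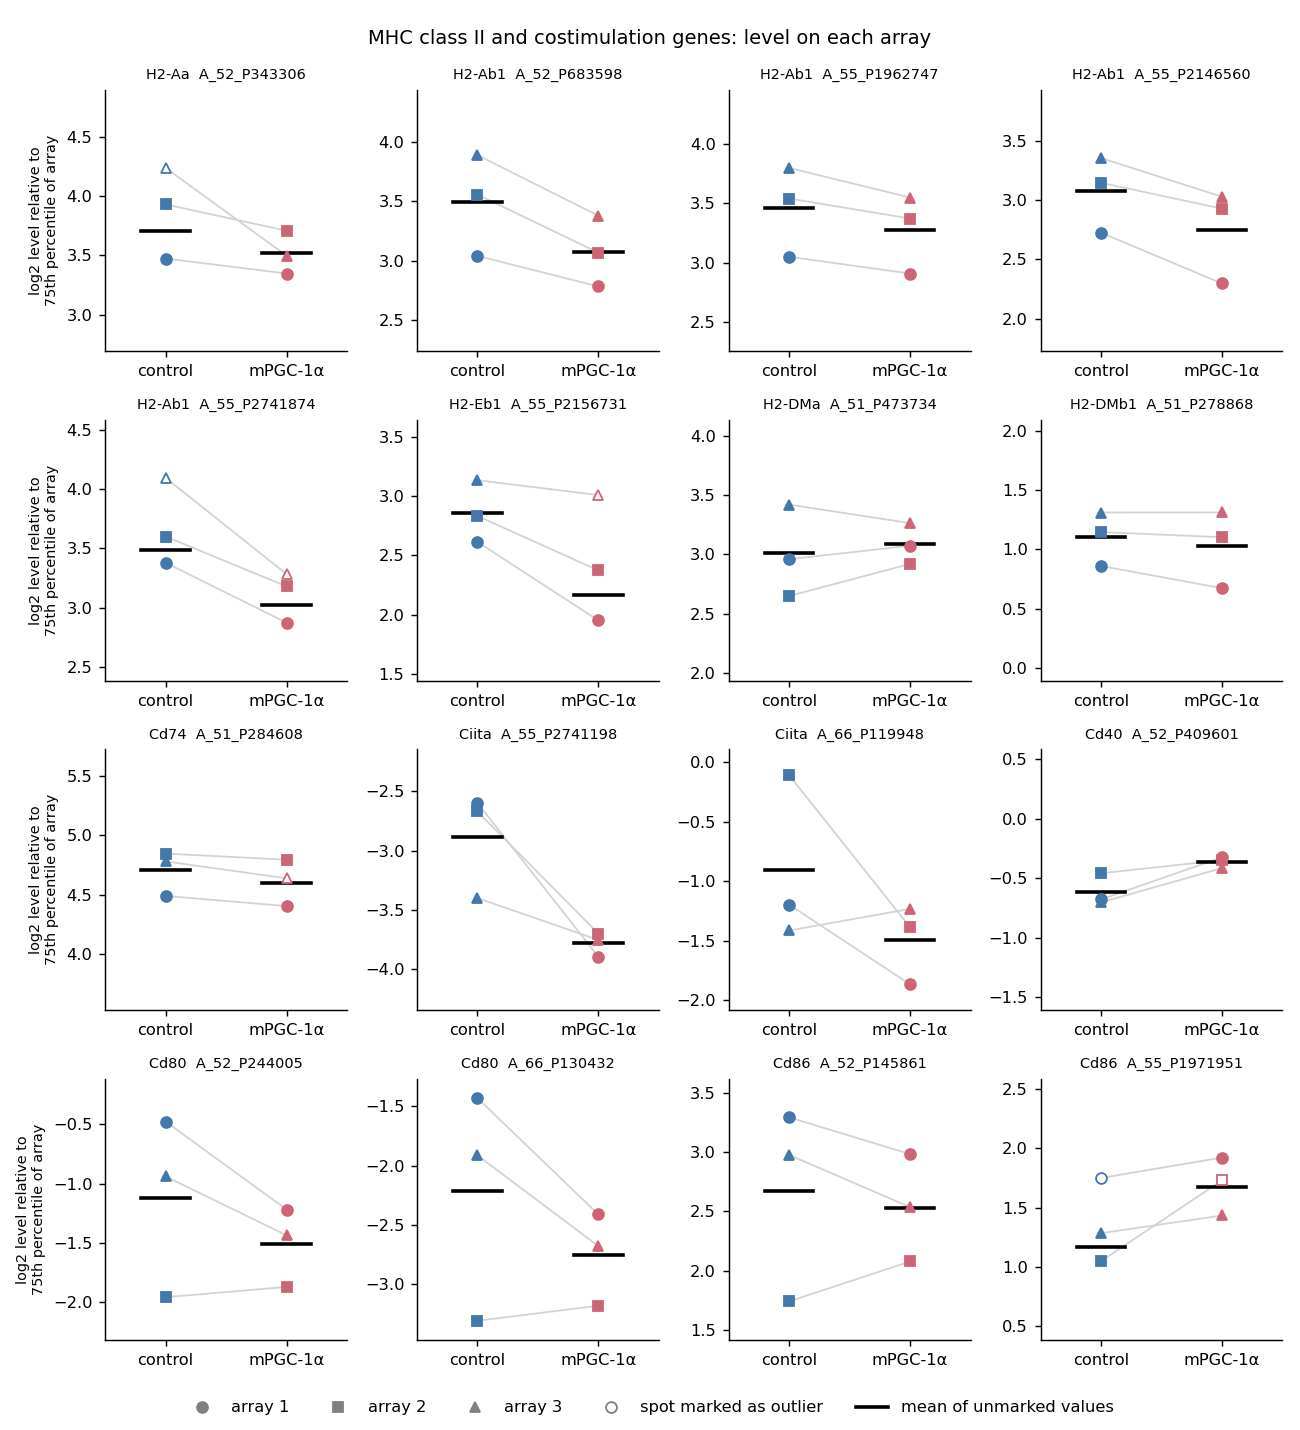
Level of the 16 tested probes on each array (log2 relative to the 75th percentile of the array), one panel per probe with its own vertical axis. Grey lines join arrays with the same number, open points are spots marked as outliers and bars are means of the unmarked values. Every line of the H2-Aa, H2-Ab1, H2-Eb1 and Cd74 panels goes down from control to mPGC-1α, while array 1 is the lowest of its group there and the groups mostly overlap.

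On the scale used here, the H2-A and H2-E chains and the invariant chain had lower values in mPGC-1α in each measured pair of arrays. The differences did not pass the test. In each group array 1 had the lowest level of all 4 genes, and every unmarked mPGC-1α value lay below that of the control array with the same number. Over the 7 probes of H2-Aa, H2-Ab1, H2-Eb1 and Cd74, 17 of 17 such differences between same-numbered arrays were below 0, and 21 of 21 when the marked spots were kept. Quantile normalization gave -0.36 for H2-Aa, -0.34 for H2-Ab1 and -0.30 for Cd74, again with no call. With the percentile taken over unmarked spots alone these became -0.02, -0.09 and -0.17, and H2-Eb1 had -0.76. Pair differences were counted on the reported scale only, so whether every sign holds on another is not shown. The 7 probes measure 4 genes, and 4 of the probes measure H2-Ab1 alone. The pair differences are not independent of each other. Over the array, 14.7% of probes with 6 values were lower in all 3 pairs. The H2-DM chains were not in this count. Their pairs gave 0.11, 0.27 and -0.16 for H2-DMa and -0.19, -0.04 and 0.0006 for H2-DMb1. Arrays with the same number deviated together across the probes of the whole array, although the labels leave the meaning of the numbers unsaid.

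H2-Ab1, the β chain of H2-A, had 4 probes on the array. By the brightest it was at 3.05, 3.54 and 3.80 on the control arrays and at 2.91, 3.37 and 3.55 on the mPGC-1α arrays. The groups overlapped, with means of 3.46 ± 0.38 (SD, n = 3) and 3.28 ± 0.33 (SD, n = 3). The difference of -0.19 (SE 0.25, adjusted p = 0.911, limma) was smaller than the range of 0.75 between the control arrays. Within the pairs it was -0.14, -0.17 and -0.25.

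The other 3 probes of H2-Ab1 gave the same direction with larger values. Probe A_52_P683598 was at 3.04, 3.56 and 3.89 in control and at 2.78, 3.07 and 3.38 in mPGC-1α, a difference of -0.42 (SE 0.25, adjusted p = 0.781). Probe A_55_P2146560 was at 2.72, 3.14 and 3.35 against 2.30, 2.93 and 3.03, a difference of -0.32 (adjusted p = 0.825). Both overlapped between the groups and were lower in every pair. Probe A_55_P2741874 had its spots of array 3 marked in both groups and was at 3.38 and 3.60 on the remaining control arrays and at 2.87 and 3.18 on the remaining mPGC-1α arrays. Its difference of -0.46 (SE 0.24, adjusted p = 0.751) became -0.58 with the marked spots at 4.09 and 3.28, and the groups then did not overlap. The 4 probes therefore placed the difference between -0.46 and -0.19, with none passing the test. By the brightest probe it was -0.0024 without mPGC-1α array 1, -0.0187 without control array 3 and -0.39 without control array 1. In the authors' matrix H2-Ab1 had -0.72, where the brightest probe was chosen anew and may be another.

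H2-Aa, the partner of H2-Ab1 in the H2-A molecule, had 1 probe. It was at 3.47 and 3.93 on control arrays 1 and 2, with the spot of array 3 marked, and at 3.35, 3.71 and 3.50 on the mPGC-1α arrays. The groups overlapped and the difference was -0.18 (SE 0.23, adjusted p = 0.902). The marked spot read 4.24, the highest of the 6, and with it the difference was -0.36.

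H2-Eb1, the β chain of H2-E, had 1 probe. Only its RNA was measured, so whether an H2-E molecule was formed in these mice is not shown. It was at 2.61, 2.83 and 3.13 in control and at 1.95 and 2.37 on mPGC-1α arrays 1 and 2, below all control values. The means were 2.86 ± 0.26 (SD, n = 3) and 2.16 ± 0.30 (SD, n = 2), 1.62-fold lower in mPGC-1α. The difference of -0.70 (SE 0.24, 95% interval -1.26 to -0.14) had an unadjusted limma p of 0.0207 and an adjusted p of 0.669. This value rests on the marked spot of mPGC-1α array 3, which read 3.01. With it the groups overlapped and the difference was -0.42, while without control array 2 and without the marked spot it was -0.71 (adjusted p = 0.183). With quantile normalization as well it was -0.91 (limma, adjusted p = 0.0617). That setting was added after seeing the data, and 2143 of 39288 probes passed in it.

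Cd74, the invariant chain, was nearly level. Its values were 4.49, 4.85 and 4.78 in control and 4.40 and 4.79 on mPGC-1α arrays 1 and 2, and the marked spot of array 3 read 4.64. The difference was -0.11 (SE 0.22, 95% interval -0.60 to 0.39, adjusted p = 0.949), and -0.04 without control array 2. Other scalings gave larger differences, -0.30 with quantile normalization and -0.22 in the authors' matrix. With quantile normalization and without control array 2 it was -0.35 (limma, adjusted p = 0.158).

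The chains of the peptide exchange molecule H2-DM showed no common direction. H2-DMa was at 2.96, 2.65 and 3.42 in control and at 3.07, 2.92 and 3.26 in mPGC-1α, with all mPGC-1α values inside the control range. The difference of 0.08 (SE 0.23, adjusted p = 0.966) became -0.10 without control array 2 and -0.05 with quantile normalization. A second H2-DMa probe, made for a predicted transcript, was well above background on control arrays 1 and 2 alone, at -6.29 and -6.34, and was not tested. The bound that the dim mPGC-1α arrays allow is under 1, so no fold is given. H2-DMb1 was at 0.86, 1.15 and 1.31 in control and at 0.67, 1.1 and 1.31 in mPGC-1α, which overlap almost fully (difference -0.08, SE 0.23, adjusted p = 0.967).

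H2-DMb2, a near copy of H2-DMb1 that encodes a second β chain of H2-DM, behaved otherwise. It was no member and is named here after its values were seen. Its levels were 0.05, -0.87 and -0.23 in control and -1.98, -1.23 and -0.91 in mPGC-1α, with no overlap. The difference was -1.02 (SE 0.34, unadjusted p = 0.0143, adjusted p = 0.669). Cross-hybridization between these similar genes was not tested, and the difference between them was not tested either.

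Ciita, the class II coactivator, had 2 probes and both had a lower mean in mPGC-1α. By the brighter it was at -1.20, -0.11 and -1.42 in control and at -1.87, -1.39 and -1.23 in mPGC-1α. The high value of control array 2 made up most of the difference of -0.59 (SE 0.36, adjusted p = 0.785), which was -0.19 without that array. The pairs gave -0.67, -1.28 and 0.18, so arrays 3 went the other way. By the second probe, A_55_P2741198, Ciita was at -2.60, -2.67 and -3.40 in control and at -3.89, -3.70 and -3.75 in mPGC-1α.

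All mPGC-1α arrays lay below all control arrays by this second probe. The difference was -0.89 (SE 0.31, 95% interval -1.59 to -0.20), 1.86-fold lower, with an unadjusted limma p of 0.0171 and an adjusted p of 0.669. An exact two-sided permutation test gave p = 0.1, the smallest that 3 against 3 arrays allow. Within the first slide the difference was -1.16, and on the second, with 1 array per group, it was -0.35. Among all probes with 6 values, 5.15% were lower in mPGC-1α without overlap, against 1 of the 11 member probes, this one.

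The number of probes lower in all 3 pairs was 4 of these 11, of which 3 measured H2-Ab1 and the other was the second probe of Ciita. Over the array 14.7% of probes with 6 values were lower in all 3 pairs. Since 3 of the 4 share a gene, they are not separate findings.

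The costimulatory genes did not move together. Cd40, the receptor through which T cells signal back to the presenting cell, was at -0.68, -0.46 and -0.70 in control and at -0.32, -0.35 and -0.42 in mPGC-1α. Every mPGC-1α array lay above every control array, but the separation was small, with a difference of 0.25 (SE 0.21, adjusted p = 0.837) and an exact two-sided permutation p of 0.1. Over the array, 5.87% of probes with 6 values were higher without overlap, and Cd40 was the 1 member among them. Its pairs gave 0.35, 0.11 and 0.29.

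Cd80, a ligand of Cd28, varied more between arrays than between groups. By its brightest tested probe it was at -0.48, -1.96 and -0.94 in control and at -1.22, -1.87 and -1.44 in mPGC-1α. Array 2 was the lowest in both groups, and the control range of 1.48 exceeded the difference of -0.38 (SE 0.38, adjusted p = 0.867). A second probe gave the same order of arrays, at -1.43, -3.31 and -1.91 against -2.41, -3.18 and -2.68 (difference -0.54, adjusted p = 0.845). Without control array 2 the first probe gave -0.80 with an adjusted p of 0.146. The third probe was marked on mPGC-1α arrays 2 and 3 and was not tested, but it differed from the others. It was at 1.68, 1.67 and 1.40 in control and 1.29 on mPGC-1α array 1, while the marked spots read 1.85 and 2.14.

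Cd86, the other ligand of Cd28, had array 2 lowest in both groups as well. By its brightest probe it was at 3.29, 1.74 and 2.98 in control and at 2.98, 2.08 and 2.54 in mPGC-1α, so that the mPGC-1α values lay inside the control range. The difference was -0.14 (SE 0.39, 95% interval -1.01 to 0.74, adjusted p = 0.964), and -0.60 without control array 2 (adjusted p = 0.247). Another probe, with 2 unmarked values per group, was at 1.05 and 1.28 on control arrays 2 and 3 and at 1.92 and 1.43 on mPGC-1α arrays 1 and 3. Its difference of 0.51 (SE 0.28, adjusted p = 0.766) had the opposite sign, and was 0.33 with the marked spots kept. The third probe had marked spots on 4 arrays, which left too few values for a test. The tested probes of Cd86 thus disagree in direction on unmarked values, and the probes of Cd80 do so once the marked spots are counted. No direction is given for either gene.

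Fitting the replicate number as a block changed no call among the members. In this fit 0.00245% of all probes, a single one, passed. The smallest adjusted p of a member became 0.244, for the second Ciita probe, and H2-Eb1 had a difference of -0.56 with an adjusted p of 0.365. The difference within the first slide was -0.37, -0.15, -0.32 and -0.46 for the 4 probes of H2-Ab1 in the order of their names. It was -0.56 for H2-Eb1, and on the second slide H2-Ab1 had -0.51, -0.25 and -0.33 by the 3 probes with values.

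**Figure D2:**
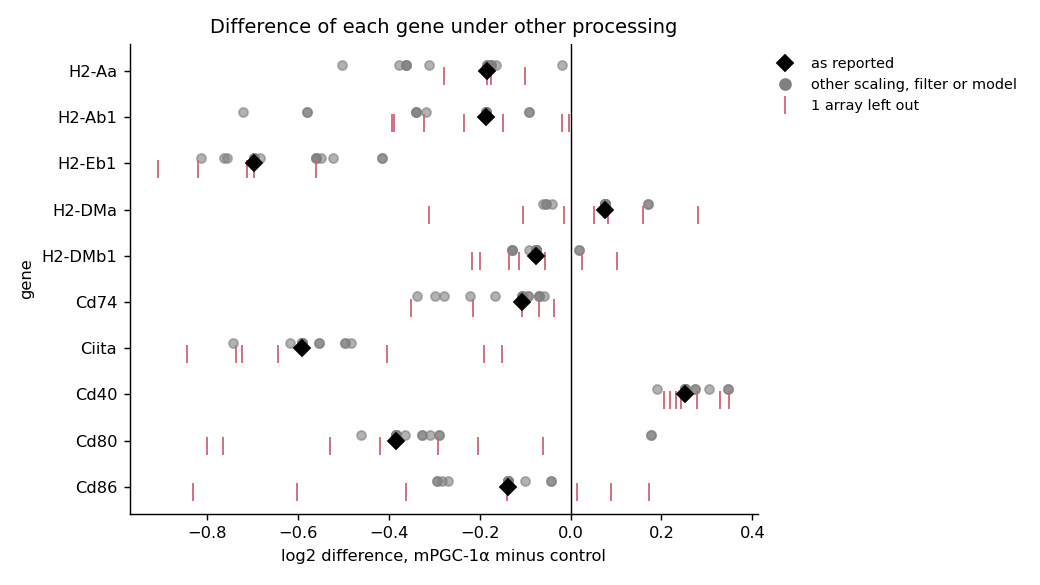
Difference of each gene in log2 units, mPGC-1α minus control, by its brightest tested probe as reported (diamond), under another scaling, filter or model (grey points) and with 1 array left out (ticks). H2-Aa, H2-Ab1, H2-Eb1, Cd74 and Ciita stay below 0 and Cd40 above it, while H2-DMa, H2-DMb1, Cd80 and Cd86 lie on both sides.

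The other genes of the pathway were described by lists, none of whose members passed the test. Of 14 further genes of class II presentation 13 could be tested, 10 with a higher and 3 with a lower mean in mPGC-1α, and a median difference of 0.18, where 11250 of all 18222 genes had a higher mean and the median was 0.09. H2-Oa and H2-Ob, the chains of the H2-O molecule that restrains H2-DM, had differences of 0.39 and -0.10. The cofactors of class II transcription (the RFX and NF-Y subunits, Creb1 and the acetyltransferases) were higher in 8 of 10, with a median of 0.13. Rfx5, which binds the X box, had 0.15 and Nfya, which binds the Y box, had -0.01. The lists were not tested against the class II chains or against other genes.

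Interferon gamma signalling, which induces Ciita, had 8 of 10 genes tested and a median of 0.09, 5 higher and 3 lower. The transcription factor Irf2, named after its values were seen as the 1 gene of the list with an unadjusted p under 0.05, had a difference of 0.44 (limma, unadjusted p = 0.0369, adjusted p = 0.686). Class I presentation, the route to CD8+ T cells, was split evenly with 7 higher and 7 lower of 14 tested and a median of 0.02.

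Of 16 other costimulatory and coinhibitory ligands 14 could be tested, with 10 higher, 4 lower and a median of 0.17. Tnfsf9, the ligand of 4-1BB, and Cd70, the ligand of CD27, had unadjusted p-values under 0.05, with differences of 0.65 and 0.89 and adjusted p-values of 0.686 and 0.675. Both were named after their values were seen, and Cd70 was dim, at -6.15 to -5.54 in control and -5.29 to -4.76 in mPGC-1α. The adaptors of Cd40 (9 tested) had a median of 0.20, with 6 higher and 3 lower. The T cell receptors of these ligands, such as Cd28 and Ctla4, had a median of -0.01 over 6 tested genes.

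Class II is also carried by cells other than microglia, so their markers were read on the same arrays. All 12 microglia markers were well above background on all arrays, and their median level was 3.56 to 3.95 in control and 3.31 to 3.72 in mPGC-1α over the 5 measured on every array. On control arrays 1 and 3 this median is the level of Olfml3. That gene was at 3.90, 1.07 and 3.95 in control and at 1.47, 1.33 and 1.98 in mPGC-1α. Csf1r, Trem2 and P2ry13 had differences of 0.17, 0.23 and 0.11, and Sall1 had -0.17. P2ry12 and Tmem119 could not be tested. Of the 10 microglia markers that could be tested 5 had a higher and 5 a lower mean in mPGC-1α, with a median difference of 0.03. Dendritic cells, B cells, border macrophages and monocytes all carry class II. The border macrophage markers had a median difference of -0.24, with 8 of 10 lower, and a median level of -0.34 to 0.54 in control and -0.46 to 0.13 in mPGC-1α. The dendritic cell markers had -0.14, with 8 of 11 lower, and levels of -1.27 to -1.03 against -1.94 to -0.87. Both lists had their lowest mPGC-1α level on array 1, where the class II chains were also lowest, and so did the B cell, monocyte, T cell and neutrophil lists, the last at -0.38 on that array against 1.99 and 1.95 on the other mPGC-1α arrays and 1.24 to 2.27 in control. Of the dendritic cell markers Cd209a (-1.01) and Clec9a (-0.83) had an unadjusted p under 0.05 and were named for it.

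Monocyte markers had a median difference of -0.13 with 8 of 10 lower, and B cell markers -0.02 with 5 of 9 lower. All 10 border macrophage and all 10 monocyte markers were well above background on all arrays, as were 11 of 12 dendritic cell and 8 of 10 B cell markers. Between 71.0% and 86.5% of all spots of an array passed the same criterion, so these counts do not show whether such cells were present. The part of these cells in the class II levels was not tested. Markers of neurons, oligodendrocytes and astrocytes had higher means in mPGC-1α, in 9 of 10, 10 of 10 and 8 of 9 genes, with median differences of 0.74, 0.86 and 0.65. Oligodendrocyte markers were at a median level of -1.78 to -0.51 in control and -0.43 to 0.64 in mPGC-1α, without overlap. Endothelial and mural markers did not overlap either, at -3.12 to -2.68 in control and -2.56 to -2.27 in mPGC-1α. The part of this RNA in the members' differences was not tested. Neutrophil, T cell and endothelial and mural markers had medians of -0.10, 0.15 and 0.25.

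**Figure D3:**
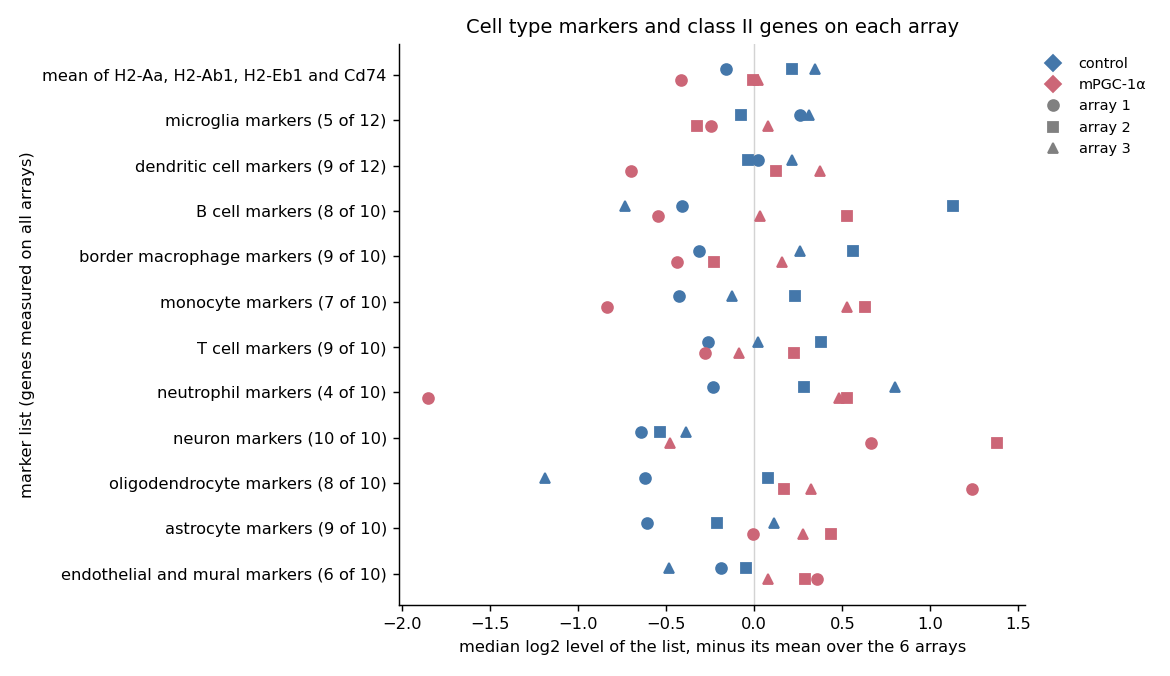
Median log2 level of each marker list on each array, minus its mean over the 6 arrays, with the mean of the centred levels of H2-Aa, H2-Ab1, H2-Eb1 and Cd74 in the top row and the number of genes measured on all arrays in brackets. Array 1 of mPGC-1α is the lowest for the class II row and for the dendritic cell, border macrophage, monocyte, T cell and neutrophil lists, while the oligodendrocyte list and the endothelial and mural list separate the groups.

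To see which genes varied in the same way, the levels of H2-Aa, H2-Ab1, H2-Eb1 and Cd74 were each centred on their mean and averaged. This class II profile was -0.14, 0.24 and 0.37 on the control arrays and -0.40, 0.01 and 0.04 on the mPGC-1α arrays, with fewer genes behind the values of arrays 3 because of marked spots. Of 16182 other genes with 6 values, the 8 with the smallest root mean square difference from it were Pla2g12a (0.0596), Rraga (0.0616), Nlrp1b (0.0625), Eno1 (0.0749), Pgrmc1 (0.0773), Kif16b (0.0784), Atp11b (0.0788) and Cibar1 (0.0814). They include a phospholipase (Pla2g12a), a GTPase that signals amino acid supply (Rraga), an inflammasome sensor (Nlrp1b) and a glycolytic enzyme (Eno1). The median gene lay 0.390 from the profile, and a gene that did not vary at all would lie 0.249 from it. The likeness is over 6 arrays that share their scaling, and none of the 8 genes passed the test between the groups.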

How the data were processed

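RNA of P2RY12-selected microglia from 3 control and 3 mPGC-1α samples was hybridised to Agilent mouse arrays, 1 array per sample. Groups and replicate numbers come from the sample labels. The time after AIS at which these cells were taken is not given in the sources used here. Different dyes are named in the labels, Cy3 as the dye and Cy5 where the labelling is described. The deposited scanner files hold 1 green channel of linear intensity per spot, background-subtracted and detrended by Agilent Feature Extraction 11.5.1.1 and not normalized between arrays. The authors also deposited a matrix of log2 values, normalized in GeneSpring, for 46731 probes, which was used as an alternative. Its columns correlated with the log2 scanner values at r of 0.999 or more across probes and had medians of 7.78 to 7.79, and its exact scaling is not stated in the sources used here.

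In R 4.3.3 (limma 3.58.1, package data.table at version 1.17.8), the processed signal was put on the log2 scale and the array's own 75th percentile, over all spots that are not controls, was subtracted. Outlier spots (non-uniform or population, by the scanner software) were then dropped and replicate spots averaged. The test took each probe with 2 or more values per group whose unmarked spots in at least one group were all well above background. This left 40745 probes, and precision is limited by the number of arrays. Probes were named by matching their accession to RefSeq genes (GRCm38.p6), which succeeded for 33767 of 56605. The array was designed on an older build, so probe positions are left out.

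The group comparison used limma (lmFit, eBayes with an intensity trend, two-sided) and Benjamini-Hochberg adjustment over all tested probes at a threshold of 0.05, with an exact permutation test over all 20 assignments for single values. The members were named by all their probes, Ppargc1a, Cx3cr1, Xist and Ddx3y as checks, and the 8 genes nearest to the class II profile by root mean square difference. The members and lists were chosen with earlier results of these data known, so their counts and medians are descriptions. Arrays with the same number deviated together from their group means (correlations of 0.247, 0.224 and 0.171 across probes, against -0.337 to 0.035 for other pairs). Deviations cancel out within a group, so higher values for some pairs force lower ones for others. The contrast is thus partly built in and does not establish pairs. The replicate numbers were treated as pairs on this basis, and the labels do not give their meaning.

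The alternatives were quantile normalization, normexp background correction (offset 50), the authors' matrix, other filters, marked spots kept, the slide or the replicate number as a block, no intensity trend and each array left out. The procedure was tested on simulated data.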

Additional observations from a re-analysis of the deposited data

How the results depend on the processing

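No member passed the test under any alternative run, and the median of their differences stayed between -0.35 and -0.04, always below 0. The smallest adjusted p of a gene by its brightest probe was 0.0617 (limma). It was that of H2-Eb1 with quantile normalization and without control array 2. H2-Aa, H2-Ab1, H2-Eb1, Cd74, Ciita and Cd40 kept their sign wherever they had enough values. H2-Ab1 came close to 0, with -0.0024 to -0.39 when 1 array was left out (nearest to 0 without mPGC-1α array 1), and had -0.72 in the authors' matrix. The brightest probe was chosen anew in each setting, so that values of H2-Ab1 under different settings may come from different probes. H2-Aa without control array 1 or 2, and H2-Eb1 and Cd74 without mPGC-1α array 1 or 2, had too few unmarked values to be fitted. These 3 genes also gave no value under the filter for signal well above background on all 6 arrays. That filter required 6 unmarked values, and each of the 3 had a marked spot, although none was dim.

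H2-DMa (0.08 as reported) became -0.0546 with quantile normalization, -0.0614 with normexp, -0.0397 in the authors' matrix, -0.0546 with quantile normalization and the replicate block, and -0.31 with quantile normalization without control array 2. Leaving out 1 array gave H2-DMa values of -0.10 to 0.28, H2-DMb1 of -0.22 to 0.10 and Cd86 of -0.60 to 0.17. H2-DMb1 became 0.0187 with the percentile taken over unmarked spots, with or without the replicate block. Cd80 became 0.18 with marked spots kept, with or without the block, since the probe used changed. The cause of the other reversals was not tested.

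Among all probes 0 passed as reported, where 2912 had an unadjusted p under 0.05. With the replicate block 1 passed, as it did with the block and marked spots kept, 3 passed with the block and no intensity trend, and 1720 with the block and the percentile over unmarked spots. Leaving out 1 array gave 0 to 2130, the highest without control array 2, and 2143 with quantile normalization as well. The settings with the percentile over unmarked spots, the combined block settings and quantile normalization without control array 2 were added after seeing the data. Signal over background limited 1 member probe, the second of H2-DMa.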
